A study of Mus musculus with 12 samples.

Results

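The peaks described here are those of mt-Nd2, mt-Nd6 and Gm26917 among the m6A peaks of mouse pancreatic islets. They number 4 of the 1233 listed peaks and 3 of the 1108 genes with a listed peak, with 1 peak in mt-Nd2, 1 in mt-Nd6 and 2 overlapping ones in Gm26917. They were taken by gene name because they are abundant RNAs of low enrichment that the authors' deposited table lists among the higher peaks of smallest p. Abundance, enrichment and the genotype difference in enrichment therefore chose these genes and are given as description, with no test. No other gene of the mitochondrial genome, and no peak of Gm42418, a neighbour of Gm26917, is in the table.

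The study mapped N6-methyladenosine (m6A) in islet RNA of C57BL/6 mice, 8 weeks old and on normal chow. The controls carry floxed Mettl3 alleles without Cre (Mettl3 flox/flox), and the knockouts carry the same alleles with RIP-Cre, which deletes Mettl3 under an insulin promoter. Deletion is thus directed to β-cells, and the other islet cells keep Mettl3. Islet RNA from 9 control mice and from 12 knockout mice was combined into 3 pools per genotype and broken to about 100 nt. From each pool an immunoprecipitate with an antibody against m6A (IP) and the unselected RNA (input) were sequenced as 150 bp read pairs, which gave 12 libraries in 4 groups of 3. That libraries of one number share a pool was taken from their titles.

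Most m6A in mRNA is written by METTL3 and its partner METTL14, within the consensus called DRACH (any base but C, then A or G, then the methylated A, then C, then any base but G). Mitochondrial mRNAs are made by a separate RNA polymerase inside the mitochondrion, from long transcripts of both strands that are cut into single RNAs. Mature ribosomal RNA also carries m6A, written by methyltransferases other than METTL3. mt-Nd2 and mt-Nd6 encode ND2 and ND6, membrane subunits of respiratory complex I, and mt-Nd6 is the protein gene that lies on the strand opposite to all others. Gm26917 is an annotated noncoding locus.

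Total reads ranged from 16832779 to 22257803 per library, and the listed peaks held 1.75% to 2.14% of input reads and 7.83% to 14.2% of IP reads. Of the 9 β-cell markers looked for, 3 have a listed peak (Mafa, Ucn3 and Nkx6-1), and none of those of α-, δ-, PP- or acinar cells has one, so that the tissue could not be checked at its hormone genes. The median IP over input of all listed peaks was 5.23, 8.09 and 9.27 in control pools 1, 2 and 3 and 4.47, 3.44 and 3.42 in the knockout pools. Control pool 1 lay nearer to the knockouts than the other controls did. In bulk RNA, fewer cells of a type cannot be told apart from less RNA per cell.

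The sequences of the peaks are shown so that their base composition and their matches to the METTL3 consensus can be read. They were read from GENCODE M21 transcripts on GRCm38, the build of the table, 5′ to 3′ on the annotated strand, with every DRACH match in capitals. Matching letters do not show that a site is methylated. Of mt-Nd6 the opening 300 of 375 bases are shown, and of the single-block peak of Gm26917 the opening 300 of 301.
mt-Nd2, chrMT:4033-4240, plus strand: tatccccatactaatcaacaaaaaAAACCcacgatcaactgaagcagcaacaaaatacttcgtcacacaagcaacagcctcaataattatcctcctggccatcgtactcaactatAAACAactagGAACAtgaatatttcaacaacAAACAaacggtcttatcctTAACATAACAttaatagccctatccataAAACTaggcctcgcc
mt-Nd6, chrMT:13696-14070, minus strand: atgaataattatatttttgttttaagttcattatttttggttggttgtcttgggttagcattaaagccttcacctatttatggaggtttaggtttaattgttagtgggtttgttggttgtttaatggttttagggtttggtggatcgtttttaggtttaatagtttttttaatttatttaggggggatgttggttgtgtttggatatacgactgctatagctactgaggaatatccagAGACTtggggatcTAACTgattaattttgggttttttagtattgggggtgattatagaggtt
Gm26917 single-block, chr17:39844992-39845292, plus strand: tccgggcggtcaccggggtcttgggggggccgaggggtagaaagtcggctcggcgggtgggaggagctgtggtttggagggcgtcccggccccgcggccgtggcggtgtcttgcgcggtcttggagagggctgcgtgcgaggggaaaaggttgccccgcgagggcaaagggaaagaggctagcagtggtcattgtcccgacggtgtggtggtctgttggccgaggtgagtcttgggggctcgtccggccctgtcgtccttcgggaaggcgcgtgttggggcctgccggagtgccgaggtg
Gm26917 spliced, chr17:39845074-39845497, plus strand, 2 blocks joined: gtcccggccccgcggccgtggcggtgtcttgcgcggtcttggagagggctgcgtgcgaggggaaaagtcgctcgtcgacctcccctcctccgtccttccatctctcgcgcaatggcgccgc

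The mt-Nd2 peak covers bases 120 to 327 of the 1038-base gene, within the coding sequence. It held 7 DRACH matches in 208 bases, 3.37 per 100 nt, above 94.98% of the 1116 listed peaks with a place in a transcript. The 60 other listed peaks within 25% of that length held 2 to 10 matches, with a median of 5. None of the matches in mt-Nd2 contains GGAC, a common form of the consensus, which 70% of those 60 peaks hold. A made up 40.9% of its bases, against a median of 27.0% over the placed peaks, and its share of G, 9.13%, was the lowest of all.

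The mt-Nd6 peak covers the opening 375 of 519 bases of its gene, from the start codon. It held 2 DRACH matches on the annotated strand, 0.533 per 100 nt, and 0.448% of the placed peaks, whose median was 2.36, had fewer. The opposite strand of the same 375 bases held 17. The 245 other listed peaks within 25% of its length held 2 to 18, with a median of 9. With 46.1% T and 5.60% C, the annotated strand is rich in T and poor in C. The gene overlaps the end of mt-Nd5 by 14 bases, outside the peak. Whether reads were counted by strand is not given in the sources used here, so RNA of the 2 strands cannot be told apart in these counts.

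Gm26917 (chr17:39843013-39846341, plus strand, a lincRNA in GENCODE) has a single-exon transcript of 3329 bases and a spliced one of 869. The single-block peak lies in the former at bases 1980 to 2280, and the spliced peak is the beginning of the latter, with blocks of 67 and 54 bases. They share 67 bases and therefore reads, and are not independent of each other. Neither held a DRACH match or a GGAC on the annotated strand. Of the 1116 placed peaks 4 held none, so both are among these 4. All 170 other listed peaks within 25% of the length of the single-block peak held at least 2, and 86.7% of the 15 near the length of the spliced peak held at least 1. The opposite strand held 9 and 2 matches. G and C made up 69.8% and 71.1% of the bases, against a median of 47.4%.

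The description of Gm26917 as rRNA-like rests on its position. It ends 12 bases before Rn18s-rs5, which RefSeq annotates as a pseudogene of the 18S rRNA family (chr17:39846354-39848202). A search of both peaks against all GENCODE M21 transcripts found no other gene at an E value of 1e-05, rRNA genes included, and the ribosomal RNA precursor was not among the sequences used here. The same search matched the mt-Nd6 peak to the nuclear pseudogene Gm11408 at 93.1% identity over all 375 bases, and the mt-Nd2 peak to Gm11835 at 79.3% over 193 bases. How reads with several matching places were counted is not given in the sources used here, so the counts of mt-Nd6 may hold reads of Gm11408. Nuclear copies outside annotated transcripts were not searched.

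**Figure D1:**
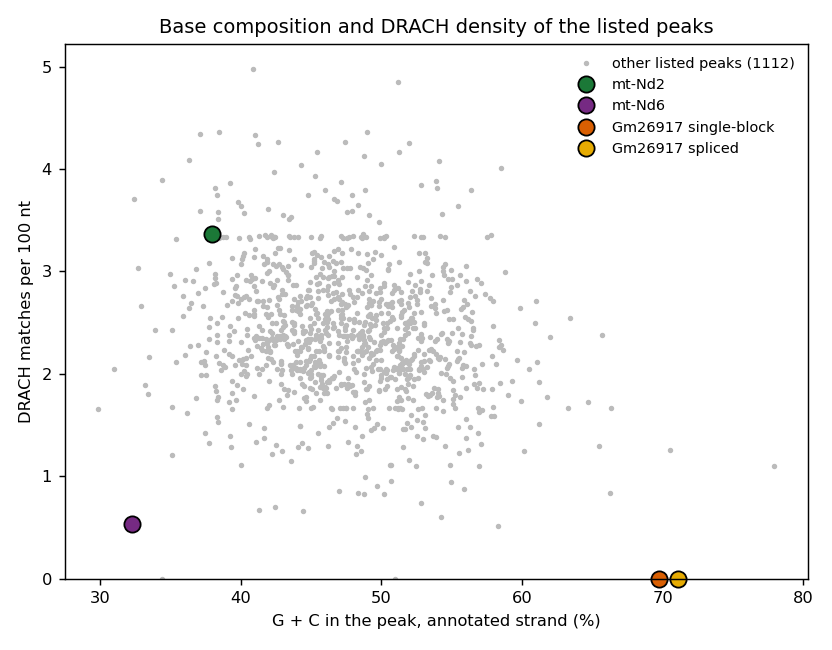
DRACH matches per 100 nt (y axis) against the share of G and C on the annotated strand (x axis, %) for the listed peaks placed in a transcript, 1 point per peak. The Gm26917 peaks lie at 0 matches and 69.8% and 71.1% G and C, mt-Nd6 at 0.533 and mt-Nd2 at 3.37 matches per 100 nt.

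Per length, these are among the most abundant RNAs of the table. The level per kb of peak in input, counting the bases in its blocks, as reads per 1000000 reads of the library (RPM) divided by length, averaged 4824 ± 616 for the spliced Gm26917 peak in control pools (SD, n = 3). It was 2522 ± 122 for mt-Nd2, 1904 ± 110 for mt-Nd6 and 918 ± 86.6 for the single-block peak of Gm26917. The median listed peak had 8.99 to 11.2 RPM per kb in the 6 inputs. In every control input the spliced Gm26917 peak ranked 1 of 1233 by this measure, mt-Nd2 ranked 2, mt-Nd6 ranked 3 and the single-block peak ranked 7. In the knockout inputs the ranks were 1 to 3 for the spliced peak, 2 to 5 for mt-Nd2, 4 to 6 for mt-Nd6 and 9 to 13 for the single-block peak. If the reads of the spliced peak were counted over its whole span of 424 bases, which the sources used here do not settle, its control level was 1377 ± 176 RPM per kb, below mt-Nd2 and mt-Nd6, and its rank 3 to 5. That alternative was chosen after seeing the data. By the mean over the 6 inputs, the peaks that lay between them were all of Malat1, an abundant nuclear noncoding RNA.

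**Figure D2:**
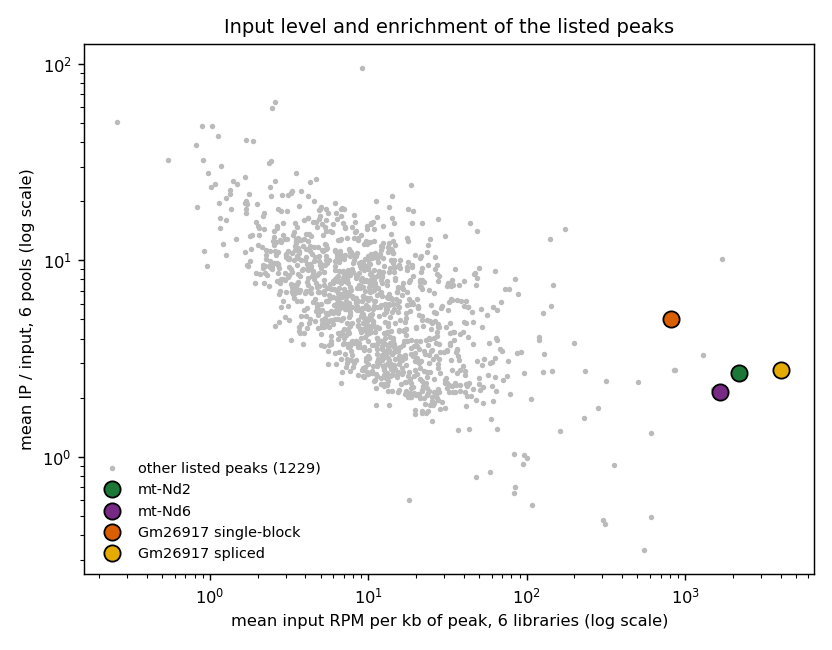
Mean IP over input of 6 pools (y axis, log scale) against the mean input level in RPM per kb of peak over 6 libraries (x axis, log scale), 1 point per listed peak. The 4 peaks named lie at the right end of the input scale, with mean enrichment of 2.15 for mt-Nd6, 2.67 for mt-Nd2, and 2.76 and 5.05 for the spliced and single-block peaks of Gm26917.

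The question for the input libraries was whether the amount of these RNAs differed with genotype. All 4 peaks had a lower mean input RPM in the knockout. The difference from the control mean was -27.3% for mt-Nd2, -25.9% for mt-Nd6, and -22.8% and -32.4% for the single-block and spliced peaks of Gm26917. None passed the edgeR test over the whole table, and at 3 of the 4 the groups did not overlap. Of all listed peaks the edgeR test called 6.65%, of which most were higher (6.00% of the table) and few lower (0.649%). Knockout inputs lay all below the controls at 4.79% and all above them at 21.8% of the listed peaks. Input and IP both enter the enrichment on which the table was selected, so the p-values give no independent evidence. Each weighs a difference against a spread fitted over input and IP libraries together, not the scatter of the input pools alone.

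The mt-Nd2 peak held 532, 496 and 545 RPM in the inputs of control pools 1 to 3, and 340, 429 and 374 RPM in those of the knockout pools. Every knockout input lay below every control input. The log2 change was -0.46 with a standard error of 0.24 (edgeR adjusted p = 0.277).

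The mt-Nd6 peak held 728, 746 and 668 RPM in control and 486, 556 and 545 RPM in knockout inputs. Here too all 3 knockout inputs lay below the controls. With edgeR the log2 change was -0.43 with a standard error of 0.24 (edgeR adjusted p = 0.309).

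The single-block peak of Gm26917 held 246, 291 and 292 RPM in control and 238, 229 and 173 RPM in knockout inputs. The groups did not overlap, but control pool 1 and knockout pool 1 were close. Between the genotypes the log2 change was -0.37 with a standard error of 0.24 (edgeR adjusted p = 0.401).

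The spliced peak of Gm26917 held 499.7, 642 and 610 RPM in control inputs and 504, 438 and 241 RPM in knockout inputs. The groups overlapped, with knockout pool 1 above control pool 1, and knockout pool 3 was the lowest input. The fitted log2 change was -0.56 with a standard error of 0.24 (edgeR adjusted p = 0.164). Without knockout pool 3 it was -0.31.

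The 4 input changes kept their sign under all 12 alternatives, 6 of which left out a pool. Another, the count filter, removed no peak and so repeated the main fit. With the inputs fitted without the IP libraries, edgeR adjusted p was 0.0249 for the spliced Gm26917 peak and 0.0399 for mt-Nd2. By the same edgeR fit it was 0.0526 for mt-Nd6 and 0.115 for the single-block peak. Over all alternatives, edgeR and DESeq2 together, adjusted p ranged from 0.0169 to 0.704, 0.00135 to 0.523, 0.0526 to 0.553 and 0.115 to 0.805 in that order. The value of 0.00135 came from DESeq2. Without control pool 1 the spliced peak passed at an adjusted p of 0.0274 in the fit of all groups. That fit called 16 listed peaks lower and 119 higher in input. Over all listed peaks the median input log2 change was 0.22, and over the 88 listed as higher it was -0.31.

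Levels of islet cell markers in the same inputs were summed over the listed peaks, with no test. The summed input level of the 3 listed β-cell markers was 363 to 420 RPM in control and 158 to 220 RPM in knockout pools. That of the 4 listed of 6 endothelial markers (Plvap, Eng, Podxl and Cdh5) was 77.8 to 84.6 and 42.4 to 84.2 RPM, which overlap, and it was lowest in knockout pool 3, where both Gm26917 peaks were lowest as well. The ductal marker Cldn4 was at 17.5 to 22.7 and 16.845 to 28.9 RPM, the immune marker C1qb at 2.42 to 3.03 and 1.67 to 2.50 RPM, and the stromal marker Cspg4 at 0.876 to 1.12 and 0.164 to 1.10 RPM, all overlapping. The β-cell sum, Cldn4 and Cspg4 were also lowest in knockout pool 3, so that low was not particular to the endothelial markers, while C1qb was lowest in another knockout pool. The part of cell composition in the input differences was not tested.

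As a share of the library, the mt-Nd2, mt-Nd6 and spliced Gm26917 peaks together took 0.182% ± 0.00623 of all control input reads and 0.130% ± 0.0133 of knockout input reads (SD, n = 3). They took 10.2% ± 0.375 and 6.37% ± 0.820 of the reads that fell in listed peaks. In IP libraries the share of all reads was 0.325% to 0.420% in control and 0.353% to 0.435% in knockout pools, and the groups overlapped. Taking these reads out of the library totals changed no direction and no call of the 4 peaks.

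**Figure D3:**
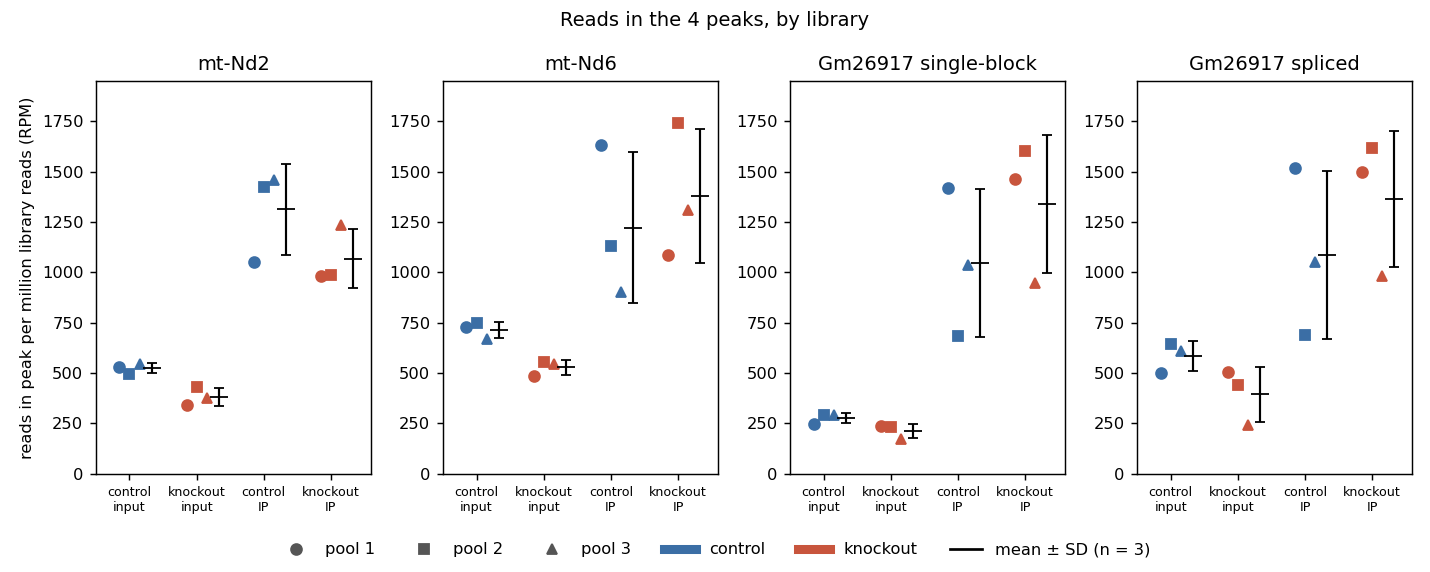
Reads in each of the 4 peaks as RPM (y axis) for the 3 pools of each genotype in input and IP, 1 point per library, with mean ± SD beside them. In input the knockout pools lie below the controls for mt-Nd2, mt-Nd6 and the single-block peak of Gm26917, and in IP the genotypes overlap at all 4 peaks.

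The IP libraries asked how much of each RNA the m6A antibody recovered. At none of the 4 peaks did the IP groups separate, and none passed the test, while 67.7% of all listed peaks did, 64.8% as lower and 2.92% as higher in the knockout. The balance of these calls depended on the scaling and the fit, with 36 higher and 799 lower by total reads, 75 and 27 with TMM scaling, 85 and 47 with DESeq2, and 1 and 23 with the replicate number as a block. The median IP log2 change of all listed peaks was -0.76, and knockout IP values lay all below the controls at 46.4% and all above them at 3.89% of these peaks.

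The mt-Nd2 peak held 1053, 1424 and 1460 RPM in the IP of control pools 1 to 3, and 980.1, 987 and 1236 RPM in that of the knockout pools. Control pool 1 fell between the knockout values. The log2 change was -0.30 with a standard error of 0.24 (edgeR adjusted p = 0.237).

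The mt-Nd6 peak held 1633, 1133 and 902 RPM in control and 1085, 1742 and 1310 RPM in knockout IP. Control pool 1 was high here, where it had been low for mt-Nd2. With edgeR the log2 change was 0.17 with a standard error of 0.24 (edgeR adjusted p = 0.484).

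The single-block peak of Gm26917 held 1419, 685 and 1038 RPM in control and 1465, 1603 and 949 RPM in knockout IP. Control pool 1 again lay with the higher knockout pools, and knockout pool 3 lay among the controls. Between the genotypes the log2 change was 0.35 with a standard error of 0.24 (edgeR adjusted p = 0.165).

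The spliced peak of Gm26917 held 1519, 689 and 1053 RPM in control and 1496, 1617 and 982 RPM in knockout IP. The order of the libraries was nearly that of the single-block peak, with which it shares reads. The fitted log2 change was 0.33 with a standard error of 0.24 (edgeR adjusted p = 0.193).

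Control pool 1 decided whether these IP differences passed. Without it the log2 change was 0.64 for the single-block and 0.65 for the spliced peak of Gm26917 (edgeR adjusted p = 0.00565 and 0.00578), 0.44 for mt-Nd6 (adjusted p = 0.0464) and -0.43 for mt-Nd2 (adjusted p = 0.0426). Over all 12 alternatives adjusted p reached 0.681, 0.771, 0.991 and 0.519 in the same order. Scaled to the listed peaks by TMM in place of total reads, the mt-Nd2 value was 0.45 rather than -0.30, so the direction of mt-Nd2 in IP rests on the scaling. The median over all listed peaks was -0.01 under that scaling.

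The 2 mitochondrial mRNAs, which lie on opposite strands, were set against each other within each library, where library size cancels. In input the mt-Nd6 peak held 1.37, 1.5 and 1.22 reads per mt-Nd2 read in control pools and 1.43, 1.30 and 1.46 in knockout pools. The groups overlapped, and the log2 difference was 0.03 (exact two-sided permutation p = 0.7, where 3 against 3 pools cannot go below 0.10). In IP the ratio was 1.55, 0.795 and 0.618 in control and 1.11, 1.77 and 1.06 in knockout pools. It varied more between control pools in IP than in input, and the log2 difference was 0.48 (exact two-sided permutation p = 0.4).

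The 2 peaks of Gm26917 differed in their ratio between input and IP. The spliced peak held 2.03, 2.21 and 2.09 reads per read of the single-block peak in control inputs and 2.12, 1.91 and 1.40 in knockout inputs. In IP the ratio was 1.01 to 1.07 in control and 1.01 to 1.03 in knockout pools. All 6 inputs lay above all 6 IP libraries. The doubt over blocks or whole span touches this ratio as well.

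Enrichment, the IP RPM divided by the input RPM of the same pool, was below that of the median listed peak in all control pools, except for the single-block peak of Gm26917 in control pool 1, where it was 5.76 against 5.23. The authors' deposited table gives fold enrichments of 1.49 for mt-Nd6, 2.12 for mt-Nd2, and 2.45 and 3.32 for the spliced and single-block peaks of Gm26917, against a median of 12.5 over all its peaks and 4.68 over its 88 higher ones. In the authors' deposited table the log2 fold changes of enrichment are 0.767, 0.298, 1.0 and 0.892 in that order, and that of mt-Nd2 is the smallest among the 88. In the order of the p-values in the authors' deposited table, mt-Nd6 is 1, the single-block peak 2, the spliced peak 3 and mt-Nd2 7 of the 88.

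From the counts, enrichment of mt-Nd2 was 1.98, 2.87 and 2.68 in control pools 1 to 3 and 2.88, 2.30 and 3.30 in the knockout pools. That of mt-Nd6 was 2.24, 1.52 and 1.35 in control and 2.23, 3.14 and 2.40 in knockout pools. In both, the highest control pool lay above the lowest knockout pool.

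For Gm26917, the single-block peak had 5.76, 2.36 and 3.55 in control and 6.15, 6.99 and 5.49 in knockout pools. In every knockout pool it lay above the median listed peak (4.47, 3.44 and 3.42), so low enrichment does not describe it there. The spliced peak had 3.04, 1.07 and 1.73 in control and 2.97, 3.69 and 4.07 in knockout pools. Control pool 1 overlapped the knockouts at both, and control pool 2 was the lowest.

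The genotypes overlapped at all 4 peaks, although the table lists them as higher. Over all listed peaks, 3.00% had knockout pools all above the controls, and 53.5% had them all below. The fitted log2 change in enrichment was 0.16 with a standard error of 0.34 for mt-Nd2, 0.61 (0.34) for mt-Nd6, 0.73 (0.35) for the single-block and 0.89 (0.34) for the spliced peak of Gm26917. These values describe peaks chosen on this contrast. With TMM scaling and DESeq2 they were 1.12 and 1.15 for mt-Nd2, 1.43 and 1.47 for mt-Nd6, 1.52 and 1.56 for the single-block and 1.68 and 1.72 for the spliced peak, and leaving out a pool moved mt-Nd2 between 0.02, without control pool 1, and 0.31, without knockout pool 2. By total reads, the median over all listed peaks was -1.02, and over the 88 listed as higher it was 0.86, while under TMM and DESeq2 the median over all was -0.07 and -0.04.

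**Figure D4:**
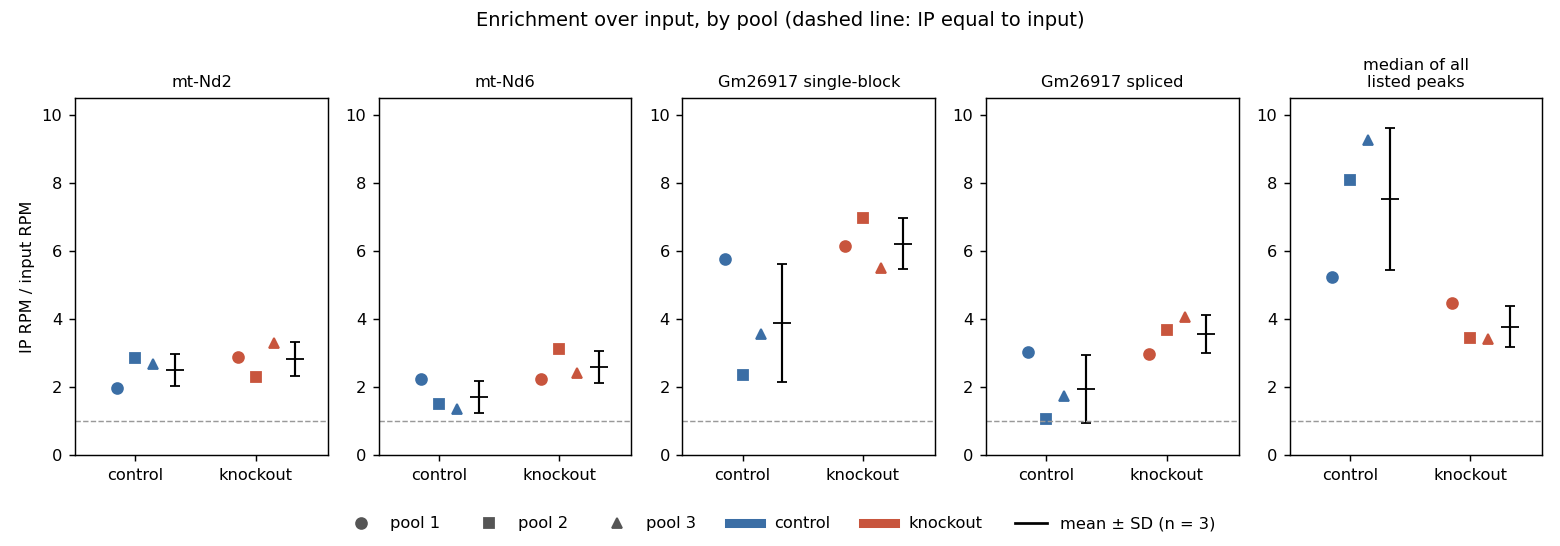
IP RPM divided by input RPM (y axis) in the 3 pools of each genotype for the 4 peaks and for the median of all listed peaks, 1 point per pool, with mean ± SD beside them. The median listed peak is at 5.23 to 9.27 in control and 3.42 to 4.47 in knockout pools, while each of the 4 peaks overlaps between genotypes.

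Where these peaks stood among all listed ones differed between pools. Counted from the lowest of 1233, mt-Nd2 ranked 89, 142 and 102 in control and 360, 372 and 591 in knockout pools. The spliced peak of Gm26917 ranked 260, 30 and 40 in control and 376, 652 and 723 in knockout pools. Ranks of mt-Nd6 were 143, 50 and 27 and then 231, 549 and 396, and those of the single-block peak 683, 94 and 171 and then 830, 1060 and 904. Every knockout rank lay above every control rank for all 4, with control pool 1 highest among the controls except for mt-Nd2. Of all listed peaks, 10.7% had knockout ranks all above and 7.30% all below the control ranks. The table lists 1145 of its 1233 peaks as lower in the knockout, so a peak of equal enrichment in both genotypes also rises in rank.

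The median listed peak was 2.64, 2.82 and 3.47 times as enriched as mt-Nd2 in control pools, and 1.55, 1.49 and 1.04 times in knockout pools. Against mt-Nd6 it was 2.33, 5.33 and 6.87 times and then 2.01, 1.10 and 1.43 times as enriched. Against the spliced peak of Gm26917 it was 1.72, 7.54 and 5.37 times and then 1.51, 0.931 and 0.842 times. The groups did not overlap for any of these, as was so in the same direction for 10.3% and in the other for 7.14% of all listed peaks. Control pool 1 was close to knockout pool 1 for mt-Nd6 and Gm26917. The median itself was lower in the knockout pools, so the ratio also falls for a peak of equal enrichment in both genotypes. The log2 differences were -1.14, -1.59 and -1.96 and are given with no test, since the members were chosen on this contrast.

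The genes whose peak RPM followed each member most closely over the 12 libraries were found by Pearson's r of log2 RPM. All libraries fall into an IP and an input cluster, which raises any r for an enriched peak. For the closest gene, r within each cluster of 6 is therefore given too, with no test. Each cluster holds both genotypes, so a genotype difference enters that r as well. For mt-Nd2 they were Pcdhb22 (r = 0.977, and 0.741 in input and 0.876 in IP), Gm5831 (0.970) and Yeats4 (0.969). For mt-Nd6 they were Canx (0.939, and 0.389 in input and 0.894 in IP), Arglu1 (0.937) and Dynll2 (0.936). For the single-block peak of Gm26917 they were Ptms (0.980, and 0.527 in input and 0.837 in IP), Plvap (0.980) and Dynll2 (0.979). For the spliced peak they were Crocc (0.965, and 0.906 in input and 0.882 in IP), Plvap (0.949) and Podxl (0.943). The genes named for mt-Nd2 are listed as lower in the knockout, with the authors' log2 fold changes at -0.912, -0.691 and -1.14. Those named for the other members are listed as higher.

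Among the members, mt-Nd2 and mt-Nd6 had an r of 0.918 in input and -0.65 in IP. At both genes every knockout input lay below every control input, so the input r holds the genotype difference. The single-block peak of Gm26917 had an r of 0.674 with mt-Nd2 in input and -0.88 in IP. With mt-Nd6 it had 0.615 and 0.506. The antibody libraries that were high for Gm26917 were thus low for mt-Nd2, over 6 libraries of both genotypes that share their scaling to total reads.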

How the data were processed

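Paired IP and input libraries of 3 control and 3 knockout islet pools were analysed. The deposited table holds the authors' read counts per peak and library, each library's total reads, RPM, fold enrichment ratios, log2 fold changes and scores (logarithms of p and adjusted p). Per the submitters' processing notes, the build was GRCm38.p6 and the tools included HOMER 4.9.1, BWA 0.7.12 and fastp 0.19.11, with no role given. The peak caller is not given in the sources used here. RPM were computed from the deposited counts and total reads and equal the deposited RPM apart from rounding. The 6 deposited enrichment columns per library were not used.

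All 1233 peaks were fitted with no count filter by edgeR 4.0.16 (R 4.3.3; quasi-likelihood test, 4 groups of 3, total reads as library sizes, common dispersion 0.0643), with Benjamini-Hochberg adjustment over all peaks and a threshold of 0.05. A standard error is the log2 change divided by the root of F. On simulated counts for 1233 peaks with 200 changed, log2 changes of 0.5, 1 and 2 were called in 0%, 55% and 99.5% in input. In IP the shares were 1%, 80.5% and 100%. The simulation gave input and IP the same spread and used the fit of all groups. In that fit, input changes of the size seen at the 4 peaks were rarely detectable. For IP the simulated shares do not carry over to the data. There 67.7% of the listed peaks were called, against 200 changed of 1233 in the simulation, and the adjustment of p depends on that share. The fit of inputs alone was not simulated. With 3 pooled samples per group, the p-values of the fit of all groups rest on a spread estimated over input and IP libraries together.

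Sequences came from GENCODE M21 transcripts, searched with blastn 2.17.0 at an E value of 1e-05, and 1105 of 1108 gene IDs matched. DRACH and GGAC were searched on both strands, and overlapping matches counted. The genes named were the members, any other mitochondrial gene or Gm42418, and for each member the 3 genes of highest correlation. The members and lists were chosen with earlier results of these data known. Alternatives were DESeq2 1.42.0, TMM, totals without the member reads, a count of 10 or more in at least 3 libraries, input or IP alone, a replicate block and leaving out each pool. TMM and DESeq2 were scaled on the listed peaks, which were selected on the change of enrichment, so they served as alternatives only. Mettl3 itself was not analysed here.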

Additional observations from a re-analysis of the deposited data

How the results depend on the processing

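All 4 input changes stayed negative under every alternative run. The count filter kept all 1233 peaks, so it repeated the main fit and could change no call. The totals without member reads changed no call either. For mt-Nd2 the input change was -0.71 with DESeq2 (adjusted p = 0.00135), -0.67 with TMM (edgeR adjusted p = 0.0494) and -0.46 with inputs alone (0.0399). For the spliced Gm26917 peak it was -0.56 with inputs alone. Enrichment changes under DESeq2 and TMM were 1.15 and 1.12 for mt-Nd2, 1.47 and 1.43 for mt-Nd6, 1.56 and 1.52 for the single-block and 1.72 and 1.68 for the spliced peak, where the median of all listed peaks was -0.04 and -0.07 in place of -1.02. The IP change of mt-Nd2 reversed to 0.44 with DESeq2 and 0.45 with TMM. The median IP change of all listed peaks moved as well, from -0.76 by total reads to -0.02 and -0.01. Which scaling is nearer to the truth was not tested.

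Leaving out each pool gave input changes of -0.55 to -0.39 for mt-Nd2, -0.48 to -0.38 for mt-Nd6, -0.46 to -0.24 for the single-block and -0.78 to -0.31 for the spliced peak. IP changes were -0.43 to -0.21, -0.030 to 0.44, 0.12 to 0.64 and 0.086 to 0.65 in that order, and mt-Nd6 reversed without control pool 3 (-0.0039) and without knockout pool 2 (-0.030). Enrichment changes were 0.02 to 0.31, 0.44 to 0.86, 0.46 to 1.09 and 0.58 to 1.31. The genotype difference in the log2 input ratio of mt-Nd6 to mt-Nd2, knockout minus control, moved between -0.044, without control pool 3, and 0.10.

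Of all listed peaks, 74 were called higher and 8 lower in input, and 36 and 799 in IP. Lower calls in input were 66 with DESeq2, 32 with TMM and 19 with inputs alone. In IP, DESeq2 called 85 higher and 47 lower, and TMM 75 and 27. Without a pool the counts were 31 to 119 and 2 to 16 in input, and 11 to 64 and 245 to 1037 in IP. With the replicate number as a block, 15 were lower in input, 1 was higher and 23 lower in IP, and the input change of the spliced Gm26917 peak was -0.62 (edgeR adjusted p = 0.0169). The numbers do not pair the genotypes: same-numbered pools correlated at -0.08 to -0.0099 in input and -0.33 to 0.099 in IP, and 0 of 6 samples in either correlated best with their own number. Within a genotype, input and IP of the same number correlated at -0.056 to 0.064 in control and -0.072 to 0.054 in knockout. These values do not show a shared pool, so the enrichment per pool rests on the titles for its pairing.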
